A study of Mus musculus with 8 samples.

Results

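The genes described here are 10 genes that mark resident Kupffer cells, the macrophages that live in the sinusoids of the liver: Vsig4, Clec4f, Timd4, Cd5l, Folr2, Cdh5, Clec1b, Cd163, Slc40a1 and Adgre1. They were taken by symbol, by a rule that uses no measured value although earlier results of these data were known, from a table of estimated counts for 55401 genes, 28711 of which had any count. All 10 passed the filter on low counts and were tested together with the other genes, 15202 in all. Poly(A) RNA of cultured mouse hepatic macrophages was sequenced as 8 libraries, 2 for each of 4 groups. The groups called normal came from livers of WT mice on a standard diet. Those called steatotic came from MC4R-KO mice, which lack the melanocortin 4 receptor and become obese, on a Western diet (WD) for 6 to 10 wk. The strain background was C57BL/6J throughout, so genotype and diet changed together and their effects cannot be told apart. Cells were pulled from the non-parenchymal fraction with an antibody to F4/80, plated on collagen in RPMI with serum, and cultured for 24 h with 500 μg/ml of cholesterol crystals (CC) or their vehicle (Veh). F4/80 is the protein made from Adgre1, so every library was selected on the product of a gene of the list. The starting age in the study's methods belongs to its long WD experiments. The age of the mice used for these cultures, and whether animals were pooled, are not given in the sources used here, and the labels do not say whether the 2 libraries of a group are separate cultures or animals. The p-values below therefore measure the spread between these libraries, which may be technical.

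The libraries held between 58668655 and 74529462 estimated counts, and levels are given as CPM, counts scaled to the library total. A count of 3 corresponds to 0.0403 to 0.0511 CPM, which covers counting error only. Mc4r, which the MC4R-KO mice should lack, was counted 22 to 72 times in the libraries labelled steatotic and 0 times in all those labelled normal. This contradicts the labels unless reads can come from the altered locus, which the table cannot show. Genes of monocytes, cells that enter steatotic livers, were higher under the label steatotic with Veh for 11 of 12, against 16.4% of all tested genes. All directions between livers are given for libraries as labelled. Fold changes are on the log2 scale with their SE, from edgeR's quasi-likelihood test with Benjamini-Hochberg adjustment over all tested genes and a threshold of 0.05.

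Kupffer cells settle in the liver before birth, keep themselves by division and take up complement-coated particles, dead cells and aged red cells from the blood. Their identity depends on signals from the cells around them, endothelial cells, stellate cells and hepatocytes among them, which act through transcription factors such as LXRα (Nr1h3) and the ID proteins. When Kupffer cells are lost, monocytes from the blood can fill the niche and take on most of this identity, with TIM4 (Timd4) among the slowest markers to return. The levels here are those of cells already taken out of the liver and cultured, and niche signals in the cultures were not measured.

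All 10 genes were detected in all 8 libraries, and their levels spanned a wide range. Per kilobase of exon, Cd5l stood highest in the libraries labelled normal with Veh at 950 CPM per kb, followed by Adgre1 at 332, Vsig4 at 215, Folr2 at 206, Slc40a1 at 120, Clec4f at 54.6, Cdh5 at 17.9, Clec1b at 11.1, Timd4 at 4.74 and Cd163 at 0.949 CPM per kb (means, n = 2). Neighbours in this order did not overlap between libraries except Vsig4 and Folr2, which could not be separated with Veh under either label. With CC, Vsig4 fell from the third to the fifth place in the libraries labelled normal. Clec4f and Vsig4 were thus present in every group, and Timd4 and Cd163 were the scarcest of the list.

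**Figure D1:**
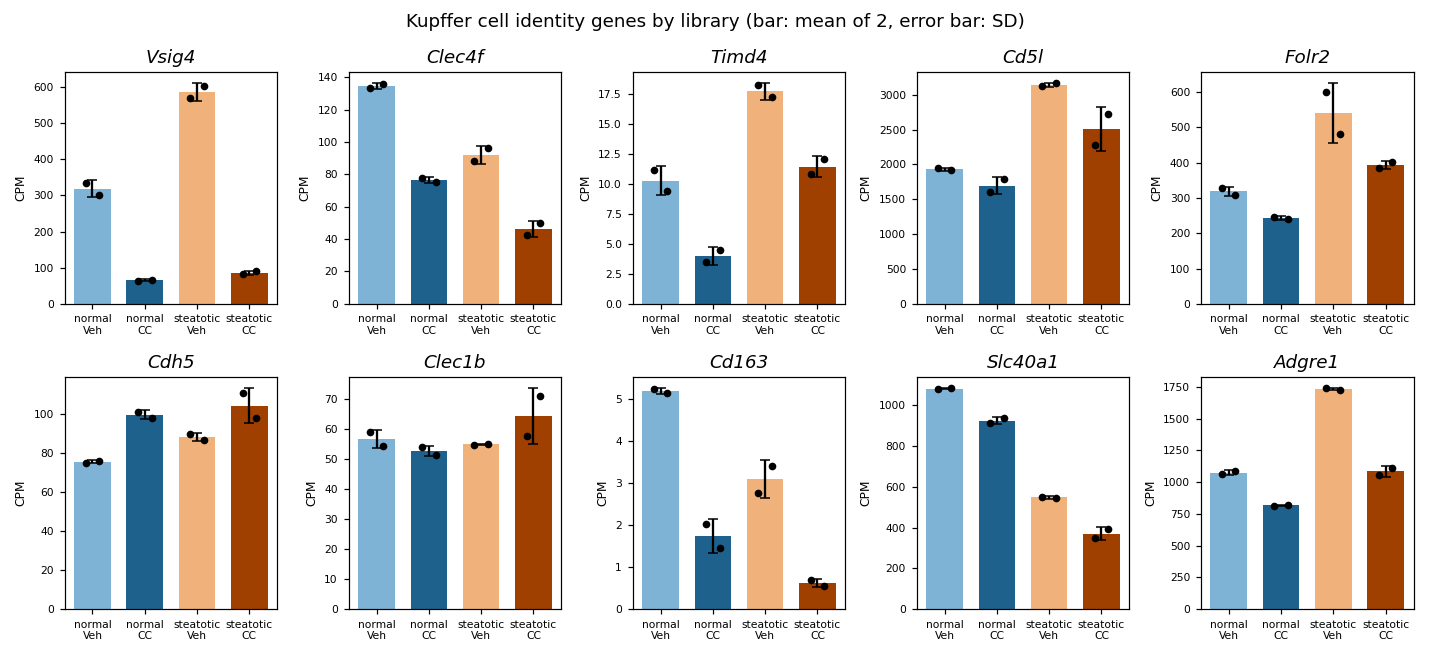
CPM of each of the 10 Kupffer cell identity genes in the 8 libraries, shown by group, each point being 1 library. Vsig4 drops from 302 to 335 CPM with Veh to 62.8 to 66.7 CPM with CC under the label normal, and from 569.9 to 605 to between 82.1 and 89.5 CPM under the label steatotic.

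The response to CC was mainly a fall. Under the label normal 5 of the 10 genes fell with CC and 1 rose, where 5.54% of all tested genes fell, 6.27% rose and 11.8% changed in either direction. Under the label steatotic 8 fell and 1 rose, against 10.9% and 12.0% of all tested genes, or 22.9% in either direction. The count of 8 was lower without steatotic CC library 1. The rise of Cdh5 under the label steatotic was lost without either steatotic Veh library or steatotic CC library 1. At an adjusted p under 0.01 with all libraries, 5 fell and 0 rose under the label steatotic. The median log2 fold change of the list was -0.36 under the label normal and -0.58 under the label steatotic, while that of all tested genes was -0.001 and 0.000. RNA was pooled over the cells of a culture, so fewer cells carrying a transcript and less of it per cell cannot be told apart. The summed level of the 10 genes was 4981 to 5037 CPM with Veh and 3887 to 4080 CPM with CC under the label normal, and 6781 to 6837 and 4376 to 4957 CPM under the label steatotic. The sum is set mostly by Cd5l, Adgre1 and Slc40a1, which moved less than Vsig4.

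**Figure D2:**
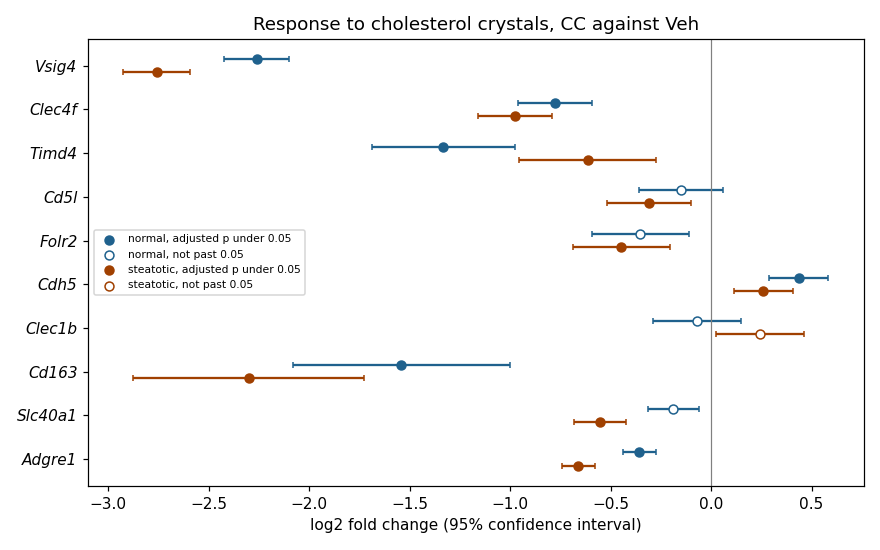
Log2 fold change, CC against Veh, of each gene with its 95% confidence interval, for libraries labelled normal (blue) and steatotic (brown), from a model over 8 libraries; filled points pass an adjusted p of 0.05. Vsig4 and Cd163 lie farthest to the left, at -2.26 and -1.54 under the label normal and -2.76 and -2.30 under the label steatotic, and Cdh5 lies to the right of 0.

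Between the liver labels the list split. With Veh, 6 of the 10 genes were higher and 3 lower in the libraries labelled steatotic, against 16.4% and 14.3% of all tested genes, or 30.7% in either direction. With CC it was again 6 higher and 3 lower, against 15.9% and 12.9%, or 28.8% in either direction. The list medians were 0.50 and 0.37 on the log2 scale, and those of all tested genes -0.01 and 0.003. Vsig4, Timd4, Cd5l, Folr2 and Adgre1 were the genes higher under both conditions, and Clec4f, Cd163 and Slc40a1 those lower under both. Cdh5 was the sixth with Veh and Clec1b the sixth with CC. The 2 comparisons use different libraries, but each shares its groups with the CC comparisons.

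**Figure D3:**
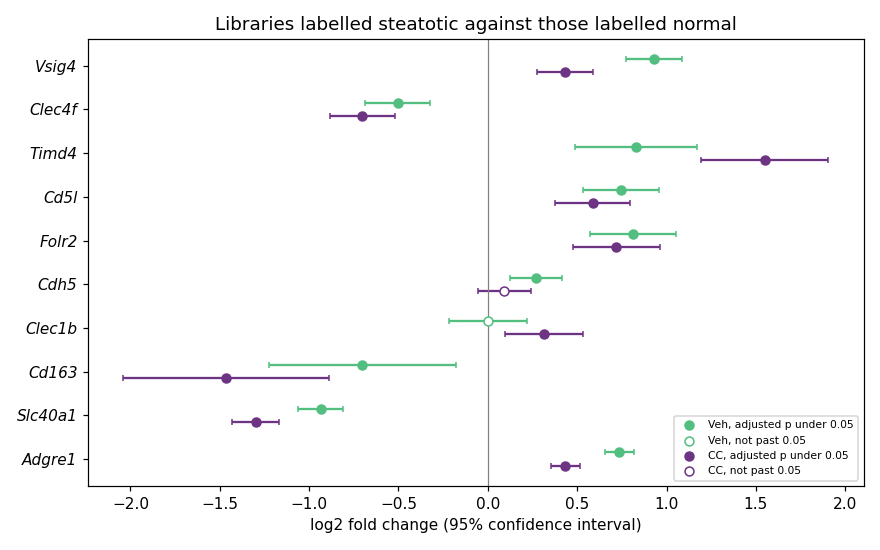
Log2 fold change, libraries labelled steatotic against those labelled normal, of each gene with its 95% confidence interval, with Veh and with CC. Vsig4, Timd4, Cd5l, Folr2 and Adgre1 lie to the right of 0 and Clec4f, Cd163 and Slc40a1 to the left, and Timd4 with CC reaches 1.55.

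Vsig4 encodes CRIg, the complement receptor by which Kupffer cells catch C3b-coated particles from the blood. It lies on chromosome X of GRCm38 from 96247203 to 96293438 on the minus strand (ENSMUSG00000044206.3). With the label normal it stood at 335 and 302 CPM with Veh and at 62.8 and 66.7 CPM with CC. With the label steatotic it stood at 569.9 and 605 CPM with Veh and at 82.1 and 89.5 CPM with CC, so that neither CC group reached the Veh group of its label. The CC libraries lay 4.80-fold lower under the label normal (-2.26 ± 0.0699, edgeR adjusted p = 1.29e-05) and 6.76-fold lower under the label steatotic (-2.76 ± 0.0711, edgeR adjusted p = 1.11e-06). No other gene of the list fell as far under either label. The higher level under the label steatotic was 1.90-fold with Veh (0.93 ± 0.067, edgeR adjusted p = 4.3e-05) and 1.35-fold with CC (0.43 ± 0.0673, edgeR adjusted p = 0.00253). The fall was steeper by 0.50 under the label steatotic in the test of the difference (-0.50 ± 0.0945, edgeR adjusted p = 0.0367), where 0 genes of the list responded more positively and 2 more negatively, against 1.95% and 1.27% of all tested genes, or 3.22% in either direction. That call ended without any library other than normal Veh library 1 or steatotic CC library 2, with an adjusted p between 0.0347 and 0.121 over the 8 fits.

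Clec4f and Clec1b both encode C-type lectins on chromosome 6, and their levels took different courses. Clec4f, a glycan-binding receptor found in the mouse on Kupffer cells alone, stood at 134 and 136 CPM with Veh and at 78.1 and 75.3 CPM with CC under the label normal, and at 88.2 and 96.2 CPM and 42.6 and 49.9 CPM under the label steatotic. All 4 groups were separate, with the libraries labelled normal above those labelled steatotic in each condition. With CC it fell by 41.7% under the label normal (-0.78 ± 0.0782, edgeR adjusted p = 0.000783) and by 49.2% under the label steatotic (-0.98 ± 0.0787, edgeR adjusted p = 0.000104), and those responses were not told apart (-0.20, 95% interval -0.46 to 0.06). Clec4f was also lower by label, by 0.50 with Veh (edgeR adjusted p = 0.00218) and by 0.70 with CC (edgeR adjusted p = 0.000483). It lies from 83644542 to 83656187 on the minus strand (ENSMUSG00000014542.3).

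Clec1b encodes CLEC-2, the podoplanin receptor that Kupffer cells share with platelets, and lies on chromosome 6 from 129397297 to 129409335 (ENSMUSG00000030159.15). On the CPM scale it varied little, with 58.9 and 54.5 CPM, 53.9 and 51.5 CPM, 54.8 and 55.0 CPM, and 57.7 and 70.9 CPM in the groups normal Veh, normal CC, steatotic Veh and steatotic CC. The label difference with Veh was -0.00 with an interval of -0.22 to 0.22, and neither response to CC passed the threshold (edgeR adjusted p = 0.721 and 0.11). It was higher in the steatotic CC libraries than in the normal CC libraries (0.31 ± 0.0938, edgeR adjusted p = 0.0418), a call lost without any library other than steatotic CC library 1 (adjusted p up to 0.182). Without that library the response under the label steatotic passed the threshold (0.0136). Clec9a, which shares 184 exonic bases with it on the same strand, was at 0.604 to 2.20 CPM, and the summed platelet and megakaryocyte genes were at 16.6 to 17.5 CPM with the label normal and 85.7 to 88.0 CPM with the label steatotic at Veh. Pf4 made up most of that sum, at 12.6 to 14.7 CPM and 78.5 to 80.9 CPM, while Ppbp, another platelet gene, was at 0 to 0.0604 CPM and 0.176 to 0.326 CPM. Their part in the Clec1b level was not tested.

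Timd4 encodes TIM4, the receptor for phosphatidylserine on dying cells, and marks Kupffer cells of long residence. Its level was low, at 11.1 and 9.45 CPM with Veh and 3.48 and 4.50 CPM with CC under the label normal, and 18.3 and 17.2 CPM and 10.9 and 12.1 CPM under the label steatotic. The steatotic CC libraries therefore reached the level of the normal Veh libraries. With CC it fell by 1.33 under the label normal (SE 0.152, edgeR adjusted p = 0.00139) and by 0.61 under the label steatotic (SE 0.146, edgeR adjusted p = 0.0204), and the latter call did not survive leaving out either library of the steatotic Veh or CC group (0.0517 to 0.112). The Timd4 response was 0.72 less negative under the label steatotic (95% interval 0.23 to 1.21), which did not pass the adjusted threshold (edgeR adjusted p = 0.146). Between labels it was 1.78-fold higher with Veh (edgeR adjusted p = 0.00417) and 2.93-fold higher with CC (edgeR adjusted p = 0.000251). It lies on chromosome 11 from 46810800 to 46844332 on the plus strand (ENSMUSG00000055546.6).

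RefSeq promoters of GRCm38.p6, from 250 bases before to 50 bases after the start, were found for 7 of the 10 genes. Those of Vsig4, Clec4f and Timd4 are shown because these 3 genes fell with CC under both labels and carry the 6 letters TGCTGA, the core bound by MAF, a factor of resident macrophages. Capitals mark that core on either strand, where TCAGCA is its reverse complement. They were read 5′ to 3′ on the strand of the gene, at chrX:96293389-96293688 (minus), chr6:83656067-83656366 (minus) and chr11:46810549-46810848 (plus).
Vsig4: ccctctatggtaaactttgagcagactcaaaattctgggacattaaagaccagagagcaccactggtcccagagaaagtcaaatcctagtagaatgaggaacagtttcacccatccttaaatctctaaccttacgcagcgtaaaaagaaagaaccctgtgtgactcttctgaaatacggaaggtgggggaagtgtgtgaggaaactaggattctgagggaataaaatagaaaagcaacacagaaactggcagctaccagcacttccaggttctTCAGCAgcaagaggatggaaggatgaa
Clec4f: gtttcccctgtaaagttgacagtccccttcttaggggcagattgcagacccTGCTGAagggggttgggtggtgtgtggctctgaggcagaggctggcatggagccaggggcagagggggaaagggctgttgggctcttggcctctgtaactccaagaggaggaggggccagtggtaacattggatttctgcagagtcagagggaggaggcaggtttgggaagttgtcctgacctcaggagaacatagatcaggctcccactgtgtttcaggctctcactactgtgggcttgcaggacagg
Timd4: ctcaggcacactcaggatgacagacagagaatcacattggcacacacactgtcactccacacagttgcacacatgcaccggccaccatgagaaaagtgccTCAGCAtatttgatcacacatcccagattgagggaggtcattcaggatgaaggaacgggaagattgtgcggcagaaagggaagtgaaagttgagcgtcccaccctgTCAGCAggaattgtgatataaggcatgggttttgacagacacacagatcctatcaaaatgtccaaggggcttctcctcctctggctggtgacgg

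The core stood 24 bases after the start of Vsig4, 199 bases before that of Clec4f, and 150 and 44 bases before that of Timd4. It was also in the promoters of Cd5l and Folr2, and it was not in these windows of Clec1b and Cd163. Cd163 also fell with CC under both labels. Of 32851 promoters of the same length, 19.5% held the core, so a match is a description of the letters and not a site. Maf itself stood at 360.0 and 362 CPM with Veh and at 255 and 246 CPM with CC under the label normal, and at 772 and 758 CPM and 451 and 457 CPM under the label steatotic. It fell with CC under both labels (-0.49 and -0.74, edgeR adjusted p = 0.000154 and 7.83e-06). With Veh it was higher under the label steatotic by 1.13 (edgeR adjusted p = 8.77e-07). A relation of Maf to the genes of the list was not tested. The other letters searched, GAGGAAG (PU.1), CACGTG (an E-box), GTGGGAA (RBPJ) and TGANTCA (AP-1), are in 13.6%, 7.15%, 6.38% and 7.81% of all promoters, and were found once each in Cd5l (PU.1) and Folr2 (AP-1).

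Adgre1, the gene for the F4/80 antigen used in the selection, stood at 1062.5 and 1087 CPM with Veh and at 814 and 821 CPM with CC under the label normal. With the label steatotic the libraries held 1739 and 1730.0 CPM with Veh and 1055 and 1115 CPM with CC. All 4 groups were apart except that the steatotic CC libraries spanned the normal Veh libraries. It fell by 0.36 (SE 0.0352, edgeR adjusted p = 0.000702) and 0.66 (SE 0.0353, edgeR adjusted p = 1.48e-05) with CC, a difference of -0.30 between labels (edgeR adjusted p = 0.0205) that was lost without normal Veh library 1, either normal CC library or either steatotic Veh library (0.0168 to 0.079 over the 8 fits). Between labels it was 1.67-fold higher with Veh and 1.35-fold higher with CC (edgeR adjusted p = 5.93e-06 and 9.4e-05). It lies on chromosome 17 from 57358691 to 57483527 (ENSMUSG00000004730.15).

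Cd5l encodes AIM, a secreted scavenger protein under control of LXR, and Folr2 the β folate receptor of resident macrophages. Cd5l, the most abundant of the list, stood at 1948 and 1919 CPM with Veh and at 1610.5 and 1785 CPM with CC under the label normal, and at 3121.5 and 3162 CPM and 2285 and 2728 CPM under the label steatotic. No library of a group reached another group. Its response to CC was -0.15 under the label normal (95% interval -0.36 to 0.06, edgeR adjusted p = 0.348) and -0.31 under the label steatotic (edgeR adjusted p = 0.0489), a call that ended without either normal Veh library, either steatotic Veh library or steatotic CC library 1 (up to 0.179). The liver label carried most of its variation, with levels 1.68-fold higher with Veh (edgeR adjusted p = 0.00117) and 50.3% higher with CC (edgeR adjusted p = 0.00367). It lies on chromosome 3 from 87357881 to 87371073 (ENSMUSG00000015854.7).

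Folr2 stood at 328 and 309 CPM, 247 and 239.7 CPM, 602 and 482 CPM, and 385 and 401 CPM in the same order of groups. The 2 steatotic Veh libraries were farther apart than any other pair of this gene, and all groups were separate. It fell with CC under the label steatotic (-0.45 ± 0.0999, edgeR adjusted p = 0.0219), though not without either steatotic CC library (0.129 and 0.0903). Under the label normal the change was -0.35 (95% interval -0.60 to -0.11, edgeR adjusted p = 0.0775), which passed without either steatotic Veh library (0.00518 and 0.00503) and with DESeq2 (0.00696). Folr2 was higher under the label steatotic by 0.81 with Veh and 0.72 with CC (edgeR adjusted p = 0.00145 and 0.00278). The gene lies on chromosome 7 from 101839988 to 101857194 on the minus strand (ENSMUSG00000032725.10), and the antisense gene Gm10602, at 5.54 to 12.4 CPM, shares 975 exonic bases with it. Whether the counting used strand is not given in the sources used here.

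Kupffer cells return the iron of aged red cells to the blood, and Cd163, the receptor for haemoglobin bound to haptoglobin, and Slc40a1, the iron exporter ferroportin, serve the entry and the exit of that path. Cd163 was scarce, with 5.23 and 5.13 CPM with Veh and 2.02 and 1.45 CPM with CC under the label normal, and 2.77 and 3.40 CPM and 0.686 and 0.550 CPM under the label steatotic. All 4 groups were separate. With CC it fell by 1.54 under the label normal (SE 0.232, edgeR adjusted p = 0.00508) and by 2.30 under the label steatotic (SE 0.247, edgeR adjusted p = 0.000441), the largest fall after Vsig4. The difference between these responses, -0.76, had an interval of -1.53 to 0.01. By label it was lower with CC by 1.46 (edgeR adjusted p = 0.00369) and with Veh by 0.70 (edgeR adjusted p = 0.0494), and the latter was lost without any library other than the 2 of the normal CC group (0.0384 to 0.211 over the 8 fits) and with DESeq2 (0.0668). It lies on chromosome 6 from 124304656 to 124330527 (ENSMUSG00000008845.9).

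Slc40a1 stood at 1079 and 1083 CPM with Veh and 913.96 and 936 CPM with CC under the label normal, and at 552 and 543 CPM and 346 and 392 CPM under the label steatotic. The 4 groups did not overlap, and with Veh no other gene of the list was as far below the label normal. It was 1.91-fold lower with Veh (-0.94 ± 0.0548, edgeR adjusted p = 1.62e-05) and 2.46-fold lower with CC (-1.30 ± 0.0553, edgeR adjusted p = 3.51e-06). With CC it fell by 0.55 under the label steatotic (edgeR adjusted p = 0.000297). Under the label normal it changed by -0.19 (95% interval -0.32 to -0.06, edgeR adjusted p = 0.0688), past the threshold without either steatotic CC library (0.0106 each), with library size as the only scaling (0.0373) and with the 4 libraries of the comparison alone (0.0172). The difference of -0.36 had an adjusted p of 0.0528 with edgeR, 0.0104 with DESeq2, and 0.0384 and 0.00894 without steatotic CC library 1 or 2. Slc40a1 lies on chromosome 1 from 45908068 to 45926523 on the minus strand (ENSMUSG00000025993.10).

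Of 12 tested genes of haem and iron handling, 4 rose and 0 fell with CC under the label normal (6.27% and 5.54% of all tested genes), and 5 rose and 2 fell under the label steatotic (12.0% and 10.9%). Hmox1, which breaks down haem, rose under both (0.56 and 0.37, edgeR adjusted p = 0.000115 and 0.000299), and Slc48a1, which carries haem out of the lysosome, rose as well (0.29 and 0.40, edgeR adjusted p = 0.00294 and 0.000281). By label with Veh 3 were higher and 6 lower (16.4% and 14.3% of all tested genes), among them Hmox1 (-0.66, edgeR adjusted p = 1.22e-05), Slc48a1 (-0.59, edgeR adjusted p = 2.58e-05) and Tfrc, the transferrin receptor (-0.60, edgeR adjusted p = 7.7e-05). The list median with CC was 0.26 under the label normal and 0.21 under the label steatotic.

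Cdh5, the gene for VE-cadherin and a junction protein of endothelium that mouse Kupffer cells also express, was the gene of the list that rose with CC. Its levels were 74.8 and 75.8 CPM with Veh and 101 and 97.8 CPM with CC under the label normal, and 89.3 and 86.6 CPM and 110.4 and 97.9 CPM under the label steatotic. The groups overlapped between the labels with CC and not with Veh. CC raised it by 0.44 under the label normal (SE 0.0628, edgeR adjusted p = 0.00411) and by 0.26 under the label steatotic (SE 0.0627, edgeR adjusted p = 0.0213), the latter lost without steatotic Veh library 1 or 2 or steatotic CC library 1 (0.07, 0.115 and 0.0887). With Veh it was higher by 0.27 under the label steatotic (edgeR adjusted p = 0.0144, lost without normal Veh library 1 or steatotic Veh library 1 at 0.0676 and 0.0759). Because Cdh5 is shared with endothelium, the list of 18 endothelial genes, 17 of them tested, is given beside it. The summed level of the 18 was 119.7 to 129.5 CPM in the normal Veh and 128 to 129.4 CPM in the normal CC libraries, and 297.5 to 308.5 CPM and 213.5 to 218.5 CPM in the steatotic Veh and CC libraries. Of the 17 tested 1 rose and 1 fell with CC under the label normal, and 3 rose and 2 fell under the label steatotic, near the 11.8% and 22.9% of all tested genes that changed. By label 6 were higher and 1 lower with Veh (16.4% and 14.3% of all tested genes). With CC 7 were higher and 2 lower by label (15.9% and 12.9%). Under the label steatotic Pecam1 fell (-1.30, edgeR adjusted p = 3.91e-05) and Stab2 rose (0.34, edgeR adjusted p = 0.0135). Clec4g, a marker of sinusoidal endothelium, was at 0 to 0.304 CPM. The other 17 genes passed the filter on low counts, Stab2 among them at 19.4 to 29.7 CPM. The part of these cells in the Cdh5 result was not tested. Cdh5 lies on chromosome 8 from 104101625 to 104144511 (ENSMUSG00000031871.9).

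Because the cells were selected on F4/80, each gene was also read as a percentage of the Adgre1 CPM in its own library. Adgre1 itself was 1.67-fold higher under the label steatotic with Veh and fell with CC under both labels. Differences in these percentages therefore also hold the changes of Adgre1. With Veh Vsig4 was 27.8% to 31.5% of Adgre1 under the label normal and 32.8% to 35.0% under the label steatotic, a smaller gap than on the CPM scale. With CC it was 7.72% to 8.12% and 7.78% to 8.03%, which overlap. Clec4f was 12.5% to 12.6% with Veh under the label normal and 5.07% to 5.56% under the label steatotic, and Slc40a1 was 99.7% to 102% and 31.4% to 31.7%, for both a wider gap between labels than on the CPM scale. Folr2 lay between 27.9% and 36.6% in all 8 libraries and Cd5l between 177% and 245%, ranges narrower than those of their CPM. Clec1b, which varied little in CPM, was 5.02% to 5.54% with Veh under the label normal and 3.15% to 3.18% under the label steatotic, and 5.47% to 6.62% with CC over both labels. Timd4 was 0.427% to 0.548% with CC under the label normal and between 0.87% and 1.08% in all other libraries. Cdh5 rose from 6.98% to 7.04% with Veh to 11.9% to 12.4% with CC under the label normal and from 5.00% to 5.14% to 8.77% to 10.5% under the label steatotic.

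**Figure D4:**
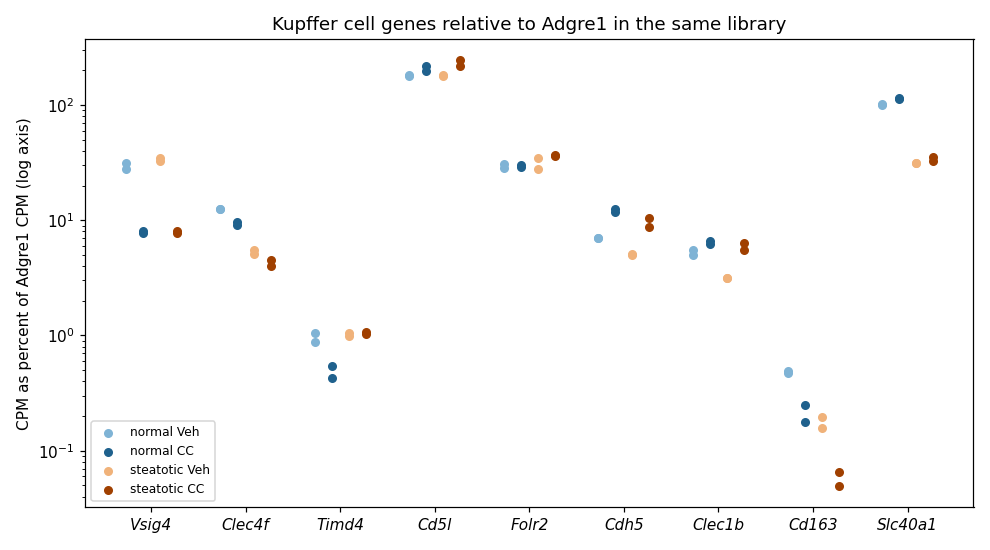
CPM of the other 9 genes as a percentage of Adgre1 CPM in the same library (log axis), each point 1 library, colored by group. Vsig4 lies at 27.8% to 35.0% with Veh and at 7.72% to 8.12% with CC over both labels, and Slc40a1 at 99.7% to 114% under the label normal and 31.4% to 35.1% under the label steatotic.

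A wider list of 28 Kupffer cell genes, 27 of them tested, fell more often than it rose with CC. With CC 1 rose and 11 fell under the label normal (6.27% and 5.54% of all tested genes), and 2 rose and 17 fell under the label steatotic (12.0% and 10.9%), with medians of -0.33 and -0.43. The complement genes C1qa and C1qc fell under both labels (C1qa -1.31 and -1.37, C1qc -1.62 and -1.63, each with an edgeR adjusted p under the threshold), as did Hpgd, an enzyme that breaks down prostaglandins (-1.95 and -3.23, edgeR adjusted p = 0.018 and 0.00206), and Mrc1, the mannose receptor (-0.75 and -1.64, edgeR adjusted p = 9.1e-05 and 1.58e-06). The response differed between labels in 6 of the 27 (3.22% of all tested genes), all more negative under the label steatotic, among them Mrc1 (-0.89, edgeR adjusted p = 0.00121), Cd207 (-1.56, edgeR adjusted p = 0.00153) and Ptgs1 (-0.92, edgeR adjusted p = 0.0109). With Veh 11 were higher and 6 lower under the label steatotic (16.4% and 14.3% of all tested genes), and with CC 8 were higher and 11 lower (15.9% and 12.9%). Marco, a scavenger receptor, was the furthest below with Veh (-1.93, edgeR adjusted p = 0.000313), while C1qa was higher (1.39, edgeR adjusted p = 2.05e-06).

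**Figure D5:**
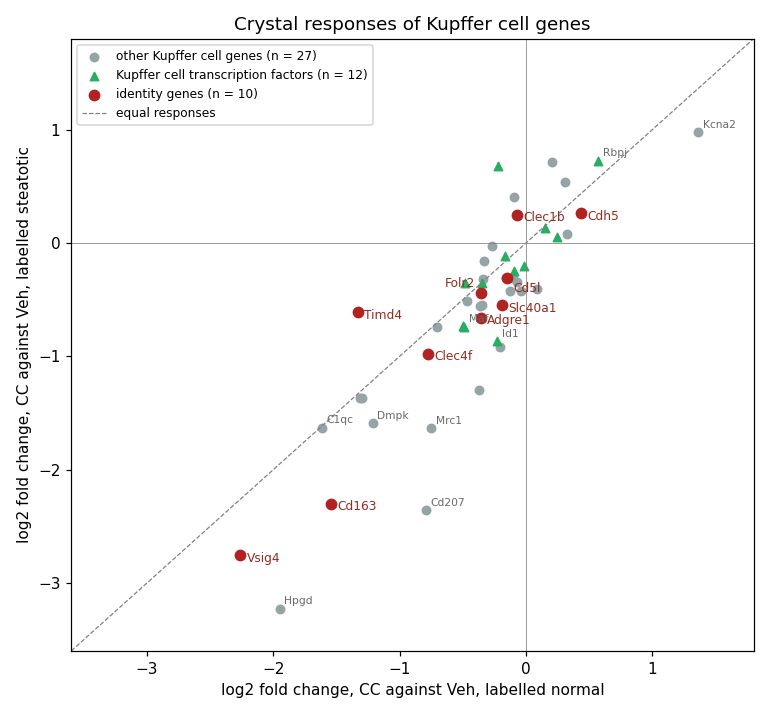
Log2 fold change with CC under the label normal (horizontal axis) and steatotic (vertical axis) for the 10 identity genes, the wider Kupffer cell list and the transcription factors, each point a gene. Vsig4 lies at -2.26 and -2.76, Hpgd at -1.95 and -3.23, and Mrc1 at -0.75 and -1.64, below the diagonal.

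Of 12 transcription factors of the Kupffer cell, 1 rose and 4 fell with CC under the label normal (6.27% and 5.54% of all tested genes), and 1 rose and 7 fell under the label steatotic (12.0% and 10.9%). Nr1h3 fell under both (-0.48 and -0.36, edgeR adjusted p = 0.000553 and 0.000971), and so did Id3 (-0.50 and -0.73, edgeR adjusted p = 0.00147 and 9.56e-05). Id1 was -0.23 under the label normal (edgeR adjusted p = 0.101) and fell by 0.87 under the label steatotic (edgeR adjusted p = 0.000158), a difference of -0.64 that passed its own test (edgeR adjusted p = 0.0216). Rbpj, which carries the Notch signal, rose under both (0.57 and 0.73, edgeR adjusted p = 0.000172 and 2.08e-05). By label with Veh 6 were higher and 1 lower (16.4% and 14.3% of all tested genes), or 2 lower with library size as the only scaling, and with CC 7 were higher and 3 lower (15.9% and 12.9%). Of 15 receptors and responses of the niche signals, 0 rose and 4 fell under the label normal (6.27% and 5.54% of all tested genes) and 1 rose and 4 fell under the label steatotic (12.0% and 10.9%). Csf1r, the CSF1 receptor, fell under both (-0.46 and -0.50, edgeR adjusted p = 0.00495 and 0.00158), and Acvrl1, a receptor for BMP9 and BMP10, fell under the label normal (-0.38, edgeR adjusted p = 0.0241) and rose under the label steatotic (0.40, edgeR adjusted p = 0.0102), with a difference of 0.77 (edgeR adjusted p = 0.013).

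Markers of other cells moved with the liver label. The 12 genes of recruited monocytes summed to 235.6 to 303.1 CPM in the normal Veh libraries and to 1464 to 1468 CPM in the steatotic Veh libraries, with 11 higher and 0 lower (16.4% and 14.3% of all tested genes), and Ccr2 and Ly6c2 were at 0.737 to 0.876 CPM and 3.56 to 5.11 CPM against 8.67 to 8.78 CPM and 28.5 to 35.0 CPM. The 10 T and NK cell genes summed to 3.06 to 3.82 CPM and 37.3 to 40.4 CPM, all 10 higher. The 15 hepatocyte genes summed to 159.5 to 166.8 CPM and 106.7 to 120.4 CPM, with 9 of the 13 tested lower and a list median of -3.83. Most of that sum is Trf, the transferrin gene, at 100.4 and 95.5 CPM in the normal Veh and 103 and 118 CPM in the steatotic Veh libraries. Alb, the albumin gene, was at 49.4 and 48.1 CPM against 1.92 and 1.24 CPM (-4.91, edgeR adjusted p = 1.19e-05). With CC in place of Veh the monocyte sum was 246 to 250.5 CPM and 1073 to 1235 CPM. The part of these cells in the label differences of the 10 genes was not tested. Ly6g, a marker of neutrophils, was at 0 in all 8 libraries.

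The 10 genes did not follow a common course over the libraries. On log2 CPM over the 8 libraries, which share 4 groups and so are not independent, Timd4, Cd5l, Folr2 and Adgre1 moved together (Pearson r 0.885 to 0.949 for the 6 pairs), and Clec4f moved with Cd163 (0.975) and with Slc40a1 (0.812). Cdh5 ran opposite to Clec4f (-0.925), and the correlations of Clec1b with the other genes ran from -0.53 (Slc40a1) to 0.357 (Timd4). These are descriptions of 8 libraries in 4 groups, and no test was made. Among the other genes with a mean log2 CPM above 3, Vsig4 was most like Glb1 (0.997), Pdgfc (0.996) and Otulinl (0.9955), Clec4f like Kcnj10 (0.997), Stag2 and Oplah, Slc40a1 like Ogdh (0.997), Apex1 and Wfdc17, and Adgre1 like Wdr44 (0.9985), Twf1 and Pcyox1. Timd4 was most like Ranbp3 (0.991), mt-Tc and Neurl3, Cd5l like Rps7 (0.992), Dmwd and Ifih1, Folr2 like Noct (0.987), Eif2ak2 and Cdc42, Cd163 like Arap3 (0.9935), Impdh2 and Tmub1, Cdh5 like Cep85l (0.972), Gramd1b and Ugcg, and Clec1b like Nprl3 (0.933), Dram1 and Atox1. The mean standardized profile of the 10 genes was most like Deaf1 (0.994), Ctsc (0.992) and Ctss (0.991). Ctsc and Ctss, which encode cathepsins, were at 1702 to 1726 CPM and 6836 to 7074 CPM in the normal Veh libraries and 754 to 774 CPM and 5564 to 5646 CPM in the normal CC libraries.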

How the data were processed

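Per the labels and the study's methods, fastp trimming, HISAT2 alignment to mm10 and StringTie quantification (versions not given in the sources used here) preceded the table, in which the authors deposited estimated counts (expected counts) for 8 libraries, not normalized and with no replicates pooled. The values were whole numbers and were used as deposited. Of values from 1 to 20, 35.0% to 36.5% were multiples of 4, so 1 fragment may stand for 4 counts, and counts divided by 4 were an alternative. At that scale 3 fragments correspond to 0.161 to 0.205 CPM. Whether counting used the strand of the directional libraries is not given.

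Libraries were grouped by their labels. Genes reaching 0.5 CPM in any library entered edgeR 4.0.16 in R 4.3.3 (TMM factors, glmQLFit with robust estimation, glmQLFTest) in 1 model with 4 group means, which shares the spread over groups of 2 libraries. Adjustment was by Benjamini-Hochberg in each of 5 contrasts, across every tested gene. Coordinates and exon lengths came from GENCODE M21 (GRCm38), which held 15181 of the tested genes, and promoters from RefSeq. Before use, the fit was tested on simulated data.

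The 10 genes, the other lists and the tests were chosen with earlier results of these data known. The genes named were the 10, genes of fixed lists that were called or highly expressed, Mc4r, and the 3 genes most correlated with each of the 10 on log2 CPM with a prior count of 2. Clec4g, Ppbp, Ly6g, Gm10602 and Clec9a were named outside this rule, after their values were seen, as markers near 0 or genes that share exonic bases with the 10. DESeq2 1.42.0, other scalings, filters, prior counts, thresholds and fits, and leaving out each library in turn, were alternatives. The 2 libraries of a group differed by more than sampling noise on counts divided by 4 (chi-square per gene with a mean of 7.20 to 10.5, raised by few genes, and a median of 0.726 to 0.932) and were kept as separate samples. The values of a single gene of the transcription factor list are not reported here, though the list's counts include it.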

Additional observations from a re-analysis of the deposited data

Results flagged for a closer look

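The response of Vsig4 to CC differed between the liver labels by -0.50 on the log2 scale, with a steeper fall under the label steatotic, in the test of the difference itself (edgeR adjusted p = 0.0367). That of Adgre1 differed by -0.30 in the same direction (edgeR adjusted p = 0.0205). Of all tested genes 3.22% differed in that test. Vsig4 was past the threshold in 2 and Adgre1 in 3 of the 8 fits that left out a library.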

How the results depend on the processing

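Calls rest on 2 libraries a group and a pooled spread, fits without a library leave a group with 1 library assumed to vary like the others, and depth limits statements on Cd163 most, at 0.550 CPM at the lowest. Of 208 recounts of the called genes 186 stayed within 1.5 times, and of 1040 refits of a single gene 923 kept their direction and side of the threshold, 90 lost the call, 19 gained it and 8 changed sign; the cause was not tested. Required to exceed a 2-fold change (glmTreat), 0 genes were higher and 0 lower by label with Veh, 1 higher and 1 lower by label with CC, 0 rose and 1 fell with CC under the label normal, 0 rose and 2 fell under the label steatotic, and 0 responded more negatively. At an adjusted p under 0.01, 0 rose and 5 fell with CC under the label steatotic, and 0 responded more negatively. The shares of all tested genes at these settings, and in the fits without 1 library, were not counted. These counts therefore have no background beside them. Without 1 library, 0 to 1 rose and 5 to 8 fell with CC under the label steatotic, and 0 to 3 responded more negatively. The label difference of Clec1b with Veh, near 0, changed sign to 0.003 with DESeq2 or its size factors, 0.001 with a filter in 2 libraries at either CPM minimum and 0.000 with counts divided by 4, and ranged from -0.052 to 0.056 without 1 library. The difference of the Folr2 responses ranged from -0.246 to 0.067, the latter without steatotic Veh library 1. Of 40 CPM values 32 moved by less than 1 SD with TMM scaling, and with library size as the only scaling the median of all genes by label with Veh was -0.055, against -0.010. That scaling moved the transcription factors called lower by label with Veh from 1 to 2, and those responding more negatively from 2 to 1.

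Over all tested genes the replicate differences of libraries with the same number were hardly correlated (0.0425 under the label normal and 0.061 under the label steatotic). Noise in the counts also lowers such a correlation, so it cannot show whether the numbers pair the libraries. With the replicate number as a block 1 gene responded more negatively instead of 2, since Vsig4 was at an adjusted p of 0.0626. Block fits called 4371, 4067, 1545, 3237 and 400 genes in the 5 contrasts, against 4665, 4384, 1795, 3474 and 490 without it, and lost Cd163 by label with Veh (0.0685) and Clec1b by label with CC (0.0676).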

Other observations

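Genes of lipid- and scar-associated macrophages, which the list of identity genes does not hold, mostly rose with CC. Of 10 tested, 7 rose and 1 fell under the label normal (6.27% and 5.54% of all tested genes), 9 rose and 1 fell under the label steatotic (12.0% and 10.9%), and 7 responded more positively under the label steatotic (1.95%). Spp1, the gene for osteopontin, stood at 9.94 and 12.9 CPM with Veh and 19.8 and 19.9 CPM with CC under the label normal, and at 57.7 and 50.9 CPM and 340 and 316 CPM under the label steatotic (difference of responses 1.78, edgeR adjusted p = 0.00573). Itgax, which encodes CD11c, rose by 0.46 and 2.06 (difference 1.59, edgeR adjusted p = 0.00497), and Mmp12, a macrophage elastase, by 1.63 and 3.33 (difference 1.70, edgeR adjusted p = 0.0024). Trem2 was the gene of that list that fell, by 0.33 and 0.53 (edgeR adjusted p = 0.00809 and 0.000383).

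Spic, a factor of red pulp macrophages and Kupffer cells, differed widely between libraries of a group, at 196 and 416 CPM with Veh and 254 and 258 CPM with CC under the label normal, and at 403 and 178 CPM and 298 and 621 CPM under the label steatotic, and passed no test. The sparse lists with Veh by label were stellate and fibroblast genes (2 of 12 tested, 1 higher), B cell genes (3 of 5 tested, 0 called), neutrophil genes (2 of 6 tested, 1 higher and 1 lower), dendritic cell genes (6 of 7 tested, 2 higher and 2 lower), platelet genes (3 of 7 tested, 2 higher) and cholangiocyte genes (4 tested, 1 higher), where 16.4% of all tested genes were higher and 14.3% lower.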
